A study of Mus musculus with 20 samples.

Results

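The oligoadenylate synthetase (Oas) family was followed in mouse bone marrow-derived macrophages (BMDM) across 4 particle treatments. The members are the gene symbols Oas1a, Oas1b, Oas1c, Oas1g, Oas2, Oas3, Oasl1 and Oasl2, chosen by name, and they make up 8 of the 24421 genes in the count tables. Cells from the same 5 mice were exposed for 48 h to each formulation and sequenced as 1 poly(A)-enriched, strand-marking library per mouse and condition, 20 in all. The LP 3M PIC group received the dual formulation, the LP 3M and LP PIC groups each received a single one, and the LP group received the particle named alone. LP is read here as the lipoparticle of the study's title, and 3M and PIC are kept as the label codes of the 2 adjuvants. All 4 groups therefore share the particle, no group without it was analysed here, and macrophages were grown in L929-conditioned medium, a source of the growth factor CSF-1. The sources used here do not state strain, age, sex or adjuvant amounts.

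Oas enzymes bind double-stranded RNA and join ATP into 2′-5′ linked oligoadenylates. These short chains act as second messengers of the antiviral response. The genes are interferon-stimulated, and in macrophages they belong to the basal antiviral program that type I interferon raises further. The Oas-like proteins carry ubiquitin-like domains at their end. Mouse Oasl1 does not make oligoadenylates and is known to hold back translation of Irf7, whereas mouse Oasl2 keeps synthetase activity.

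All 8 members lie on chromosome 5 (GENCODE M21 coordinates, GRCm38). Oas1a to Oas1h, Oas2 and Oas3 form a cluster of 10 genes over 191.3 kb (chr5:120730333-120921652), and Oasl1 and Oasl2 form a second one of 41.0 kb (chr5:114896936-114937915). RefSeq promoter windows of 300 bases (250 before and 50 after the start, GRCm38.p6) were listed for 6 of the 8, with Oas1b and Oas2 not listed. They are shown because the members that share a short motif can be set against the values that follow. The letters GAAANNGAAA, a spacing of GAAA repeats found in interferon-stimulated response elements, were searched on both strands with overlaps allowed and are in capitals. They were present in 4 of the 6 windows (Oas1a, Oas1g, Oas1c and Oas3) and in 3.44% of all 32851 windows. The Oas1a window is chr5:120907476-120907775 (minus strand), the Oas1g window chr5:120887564-120887863 (minus strand), the Oas1c window chr5:120812465-120812764 (minus strand), the Oas3 window chr5:120777610-120777909 (minus strand) and the Oasl1 window chr5:114922990-114923289 (plus strand), each printed 5′ to 3′ along its gene.
Oas1a: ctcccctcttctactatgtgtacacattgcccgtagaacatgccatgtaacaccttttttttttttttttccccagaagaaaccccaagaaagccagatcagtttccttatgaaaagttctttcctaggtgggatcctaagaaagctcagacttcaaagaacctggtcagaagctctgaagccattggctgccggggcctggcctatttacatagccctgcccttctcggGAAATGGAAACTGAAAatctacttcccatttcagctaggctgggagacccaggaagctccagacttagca
Oas1g: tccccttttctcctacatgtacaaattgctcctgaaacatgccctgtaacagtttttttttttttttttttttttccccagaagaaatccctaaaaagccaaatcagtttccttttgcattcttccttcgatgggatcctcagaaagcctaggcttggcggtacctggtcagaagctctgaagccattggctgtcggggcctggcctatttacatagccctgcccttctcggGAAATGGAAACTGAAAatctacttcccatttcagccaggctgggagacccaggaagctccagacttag
Oas1c: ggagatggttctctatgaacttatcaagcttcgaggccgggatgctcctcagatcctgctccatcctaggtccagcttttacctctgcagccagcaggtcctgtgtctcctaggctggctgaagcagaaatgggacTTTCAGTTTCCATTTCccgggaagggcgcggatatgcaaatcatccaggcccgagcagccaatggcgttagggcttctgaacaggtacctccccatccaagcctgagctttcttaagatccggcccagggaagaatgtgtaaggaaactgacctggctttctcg
Oas3: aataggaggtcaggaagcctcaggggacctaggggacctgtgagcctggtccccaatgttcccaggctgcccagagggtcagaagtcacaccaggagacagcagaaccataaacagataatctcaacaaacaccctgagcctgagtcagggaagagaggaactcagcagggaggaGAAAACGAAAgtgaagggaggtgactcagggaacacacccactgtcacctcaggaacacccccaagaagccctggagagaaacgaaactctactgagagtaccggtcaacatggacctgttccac
Oasl1: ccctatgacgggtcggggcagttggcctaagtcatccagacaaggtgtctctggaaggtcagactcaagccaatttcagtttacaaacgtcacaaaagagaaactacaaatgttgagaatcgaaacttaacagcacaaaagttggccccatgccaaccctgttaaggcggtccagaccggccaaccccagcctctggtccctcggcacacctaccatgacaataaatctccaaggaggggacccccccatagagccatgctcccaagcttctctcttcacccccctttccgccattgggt

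Oas1a and Oas1g carried the same 16-base stretch, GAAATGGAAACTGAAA, which holds a pair of overlapping matches, just before their starts. Their windows were 88.8% identical over 294 aligned bases, with a longest identical run of 73 bases. The Oas1c window held this stretch on the other strand, as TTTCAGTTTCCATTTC at chr5:120812613-120812628. Oas1c and Oas1b start head to head, 120 bases apart in the GENCODE annotation, and the stretch lies 7 bases from the Oas1b start and 99 bases from the Oas1c start. Oas3 held 1 match, GAAAACGAAA. No match to these letters was found in the Oasl1 and Oasl2 windows. Each match is a description of the letters.

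Library totals ran between 9740528 (LP mouse 2) and 23874805 assigned reads (LP 3M mouse 1), and levels are given as CPM, a gene's reads scaled by the library total. All 8 macrophage markers averaged at least 1 CPM in every group, with summed levels of 12130 to 16934 CPM in LP 3M PIC, 21415 to 26958 in LP 3M, 13679 to 19908 in LP PIC and 11350 to 18848 in LP. Lyz2 had the highest mean of the 8 in every group, and single markers differed in direction. Mean Adgre1 was 2388, 4004, 748 and 697 CPM in the same order of groups. Mean Cd14 was 1207, 822, 457 and 285 CPM, and mean Mertk was 17.9, 27.8, 50.9 and 54.0 CPM. The 5 T and NK cell markers summed to at most 0.136 CPM in any library, and the B cell, mast cell and erythroid lists to at most 1.05, 5.70 and 0.411 CPM. The 5 fibroblast markers summed to 26.5 to 106 CPM in LP 3M PIC, 29.7 to 87.1 in LP 3M, 24.3 to 72 in LP PIC and 14.9 to 63.6 in LP. Of the 8 neutrophil markers, 7 were in the tables, and these summed to 26.3 to 639, 29.2 to 138, 11.2 to 25.2 and 7.36 to 12.1 CPM in the same order of groups. The 6 dendritic cell markers summed to 6.24 to 46.2, 0.305 to 0.796, 1.27 to 7.06 and 0 to 0.223 CPM, with 2 of the 6 at 0 throughout LP 3M PIC, LP 3M and LP PIC and 1 in LP. Ccr7 had the highest mean of the 6 in LP 3M PIC, LP 3M and LP PIC, and Zbtb46 in LP. Of the neutrophil markers, Mmp8 had the highest mean in LP 3M, LP PIC and LP. In LP 3M PIC it was S100a8, with a mean of 133 CPM and a highest library of 536. Mean Camp was 1.42, 0.879, 0.431 and 0.0357 CPM in LP 3M PIC, LP 3M, LP PIC and LP. S100a9, Elane, Mpo and Ltf reached at most 0.838 CPM in any library. Of the fibroblast markers, mean Dcn was 26.5 CPM in LP 3M PIC and 1.33 in LP, whereas mean Col1a1 was 9.67 and 18.7. The part of these cell markers in the values below was not tested. In bulk RNA, a change in the number of expressing cells and a change in RNA per cell cannot be told apart. All 8 members passed the filter on low counts, which kept 12132 genes.

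Most of the family was higher where the particle carried PIC. In LP PIC against LP, 7 of 8 members rose and none fell (edgeR's quasi-likelihood test, with Benjamini-Hochberg adjustment over all genes tested and a threshold of 0.05). Of all tested genes 45.5% were called, 22.7% higher and 22.7% lower. The members' median log2 fold change was 1.53 (range 0.20 to 4.06), against a median of -0.00036 over all tested genes; in the other 5 pairwise comparisons that median lay between -0.0128 and 0.0165. The exception was Oas1c, at 0.20 with an adjusted p of 0.292. The 7 that rose were also those whose 5 LP PIC and 5 LP values did not overlap, as was the case for 33.9% of all tested genes (14.7% higher and 19.2% lower).

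The particle with 3M gave another pattern. In LP 3M against LP, 1 of 8 members fell (Oas1c), none rose, and the members' median log2 fold change was -0.00062 (range -0.52 to 0.68). In that comparison 39.5% of all tested genes were called, 20% higher and 19.5% lower. No member separated LP 3M from LP without overlap, whereas 29.4% of all tested genes did. The count and its direction rest on single animals and libraries: 0 members were called without mouse 1, 2 were higher and 0 lower without LP mouse 3 (Oas1a and Oas1g), and 2 were lower and 0 higher without LP 3M mouse 3 (Oas1c and Oas3). With the mouse as a block, 3 members were called, Oas1c and Oas3 lower and Oas1a higher, where 45.8% of all tested genes were called (22.6% higher and 23.2% lower). In mice 1, 2 and 5 alone 4 were called, these 3 and Oas1g higher, where 19.3% of all tested genes were called (10.3% higher and 9% lower). In mice 3 and 4 alone 0 members were called, where 22.9% of tested genes were (13.3% higher and 9.69% lower). In the direct comparison of LP 3M with LP PIC, all 8 members were called lower, with a median log2 fold change of -1.50 (range -3.38 to -0.68), where 47.1% of all tested genes were called, 24.4% higher and 22.7% lower. No member's values overlapped there, as was the case for 32.1% of all tested genes (14% higher and 18.1% lower). In mice 3 and 4 alone 7 members were called in this comparison, where 3744 tested genes were called (2063 higher and 1681 lower). The exception was Oas1c, at a log2 value of -0.43 with an edgeR adjusted p of 0.12.

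With the dual formulation the family was again high. Against LP, 7 of 8 members rose in LP 3M PIC, with a median log2 fold change of 1.46 (range 0.01 to 5.16), among 62.2% of tested genes called, 31.7% higher and 30.6% lower. Oas3 was the member whose call was lost under some settings, which left 6. Against LP 3M, all 8 rose in LP 3M PIC, with a median of 1.34 (range 0.49 to 4.48), among 41.5% called, 20.5% higher and 21% lower. In mice 3 and 4 alone 5 were called in this comparison, without Oas1a, Oas1c and Oas1g, where 20.7% of tested genes were called (9.15% higher and 11.6% lower). Against LP, 6 of the 8 did not overlap, against 45.5% of all tested genes (17.7% higher and 27.9% lower). Against LP 3M, 6 of the 8 did not overlap either, against 25% of all tested genes (12.2% higher and 12.8% lower). Against LP PIC, 0 of 8 members were called in LP 3M PIC by edgeR's test, with a median log2 fold change of -0.10 (range -0.42 to 1.10), where 44.5% of all tested genes were called, 23.1% higher and 21.4% lower. At an unadjusted p under 0.05 the count was 1 (Oasl1), DESeq2 called 0, and with the mouse as a block edgeR called 1 (Oasl1), where 49.8% of tested genes were called (25% higher and 24.8% lower). These comparisons share control libraries, so each member's values are given side by side and no overlap between them is scored. The interaction term, which asks whether the PIC effect differed between particles with and without 3M, was called for 0 of 8 members, against 8.43% of tested genes (3.82% higher and 4.62% lower), with log2 values between -0.46 and 0.43. That share was 13.6% with the mouse as a block, 1.48% without mouse 1 and 14.9% without LP 3M PIC mouse 5. The unadjusted interaction p was under 0.05 for 0 of 8, the lowest being 0.179 (Oas1a), and DESeq2 called 0.

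**Figure D1:**
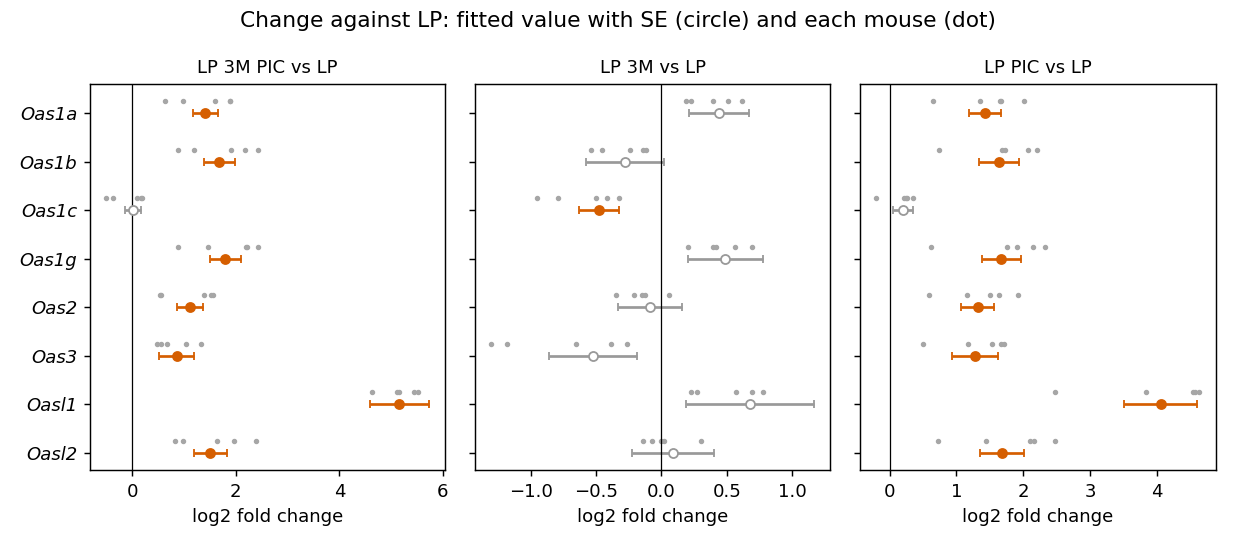
Log2 fold changes (x axis) of the 8 members (y axis) in LP 3M PIC, LP 3M and LP PIC, each against LP. Large markers with bars are the edgeR estimate ± SE, filled where the adjusted p was under 0.05. Grey dots are the 5 mice, as ratios of library-total CPM without the TMM scaling of the estimate. Library totals shifted the median of all genes by -0.11 in both 3M panels. The x scale differs between panels. Oasl1 lies farthest to the right in both PIC panels, at 5.16 in LP 3M PIC and 4.06 in LP PIC, and in the LP 3M panel the fitted values run from -0.52 (Oas3) to 0.68 (Oasl1).

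Oas1a encodes an active synthetase of the mouse Oas1 group. In mice 1 to 5 it stood at 310.2, 273, 283, 308 and 318 CPM in LP 3M PIC, and at 146, 112, 213, 179 and 112 CPM in LP 3M. It stood at 321, 297, 285, 403 and 272 CPM in LP PIC, against 102, 73.3, 182, 157 and 85.5 CPM in LP. Every PIC-treated library was above every library without PIC, and the LP 3M and LP ranges overlapped. Its log2 fold change was 1.41 ± 0.24, adjusted p = 4.14e-05 in LP 3M PIC against LP and 1.43 ± 0.24, adjusted p = 7.81e-05 in LP PIC against LP, and 0.44 ± 0.23, adjusted p = 0.139 in LP 3M against LP (edgeR, SE). In the last of these all 5 mice were higher in LP 3M, and with the mouse as a block the value was 0.47 with an adjusted p of 0.0379. It was also called without LP mouse 3 (0.65) and in mice 1, 2 and 5 alone (0.62). LP 3M PIC and LP PIC differed by -0.02 ± 0.23, adjusted p = 0.966.

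Oas1g, which also has synthetase activity in mouse, averaged 109 ± 7.86 CPM in LP 3M PIC and 44.2 ± 16.6 CPM in LP 3M (SD, n = 5 each, as for all group means here). It averaged 105 ± 24.8 CPM in LP PIC and 33.5 ± 16.4 CPM in LP. It rose in LP 3M PIC and in LP PIC, by 1.80 (adjusted p = 3.24e-05) and 1.67 (adjusted p = 0.000139) on the log2 scale over LP. Between LP 3M and LP its log2 fold change was 0.49 ± 0.29, adjusted p = 0.187, and it was called without LP mouse 3 (0.79) and in mice 1, 2 and 5 alone (0.66). The 2 genes are close copies: 57.6% of the 50-base windows of the Oas1a transcript occur in Oas1g, and 40.9% of its 100-base windows. How reads of such stretches were assigned is not known from the sources used here, so the split of reads between Oas1a and Oas1g is uncertain.

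Oas1b is annotated as a polymorphic pseudogene (RefSeq: transcribed pseudogene), since the reference strain carries a truncated form and the full-length protein gives resistance to flaviviruses in other mice. It averaged 25.0 ± 2.85 CPM in LP 3M PIC, 6.45 ± 2.25 in LP 3M, 25.4 ± 8.57 in LP PIC and 8.26 ± 3.89 in LP. It rose in LP 3M PIC by 1.68 ± 0.30, adjusted p = 7.52e-05, and in LP PIC by 1.64 ± 0.30, adjusted p = 0.000193, on the log2 scale over LP. It rose in LP 3M PIC over LP 3M by 1.96 ± 0.30, adjusted p = 6.02e-05, the second-highest value among the members in that comparison. Between LP 3M and LP the log2 value was -0.28 ± 0.30, adjusted p = 0.485. By CPM of the library total all 5 mice were lower in LP 3M, with log2 ratios of -0.54 to -0.12. That scale is not the TMM scale of the fit, and library totals shifted the median of all genes by -0.11 in this comparison. The Oas1b allele of these mice is not known from the sources used here.

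Oas1c, the head-to-head neighbour of Oas1b, did not rise with the other members over LP. In mice 1 to 5 it stood at 10.6, 12.3, 12.0, 14.9 and 14.1 CPM in LP 3M PIC and at 7.08, 6.63, 12.1, 10.5 and 9.37 CPM in LP 3M. It stood at 16.2, 13.4, 14.9, 16.6 and 15.0 CPM in LP PIC and at 13.7, 11.5, 17.1, 13.1 and 12.5 CPM in LP. The lowest mean was in LP 3M, whose range overlapped LP 3M PIC and LP but not LP PIC, and the other 3 groups overlapped one another. It fell in LP 3M by 0.48 ± 0.15, adjusted p = 0.0174 against LP, and was lower in all 5 mice, although the groups' ranges overlapped. That call was lost without mouse 1 (log2 -0.41), in mice 3 and 4 alone (-0.34) and without LP mouse 3 (-0.37). Its log2 fold change was 0.20 ± 0.15, adjusted p = 0.292 in LP PIC against LP and 0.01 ± 0.15, adjusted p = 0.945 in LP 3M PIC against LP. Against LP 3M it rose in LP 3M PIC by 0.49 ± 0.15, adjusted p = 0.0145 (4 of 5 mice), a call lost without mouse 2 (0.40), without mouse 4 (0.49), without mouse 5 (0.46) and in mice 3 and 4 alone (0.23). Of its 50-base windows, 10.7% occur in other family genes. The shared 16-base stretch lies near the starts of Oas1a, Oas1g and Oas1b, which rose in LP PIC over LP, and of Oas1c, which was not called there.

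The 4 other genes of the Oas1 cluster, Oas1d, Oas1e, Oas1f and Oas1h, were near 0, with 0 to 3 reads each in any library, and none passed the filter. Over the whole study Oas1d had 4, 6, 2 and 5 reads in LP 3M PIC, LP 3M, LP PIC and LP. Oas1h had 0 reads in all 20 libraries, where the floor of 3 reads corresponds to 0.126 to 0.308 CPM.

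**Figure D2:**
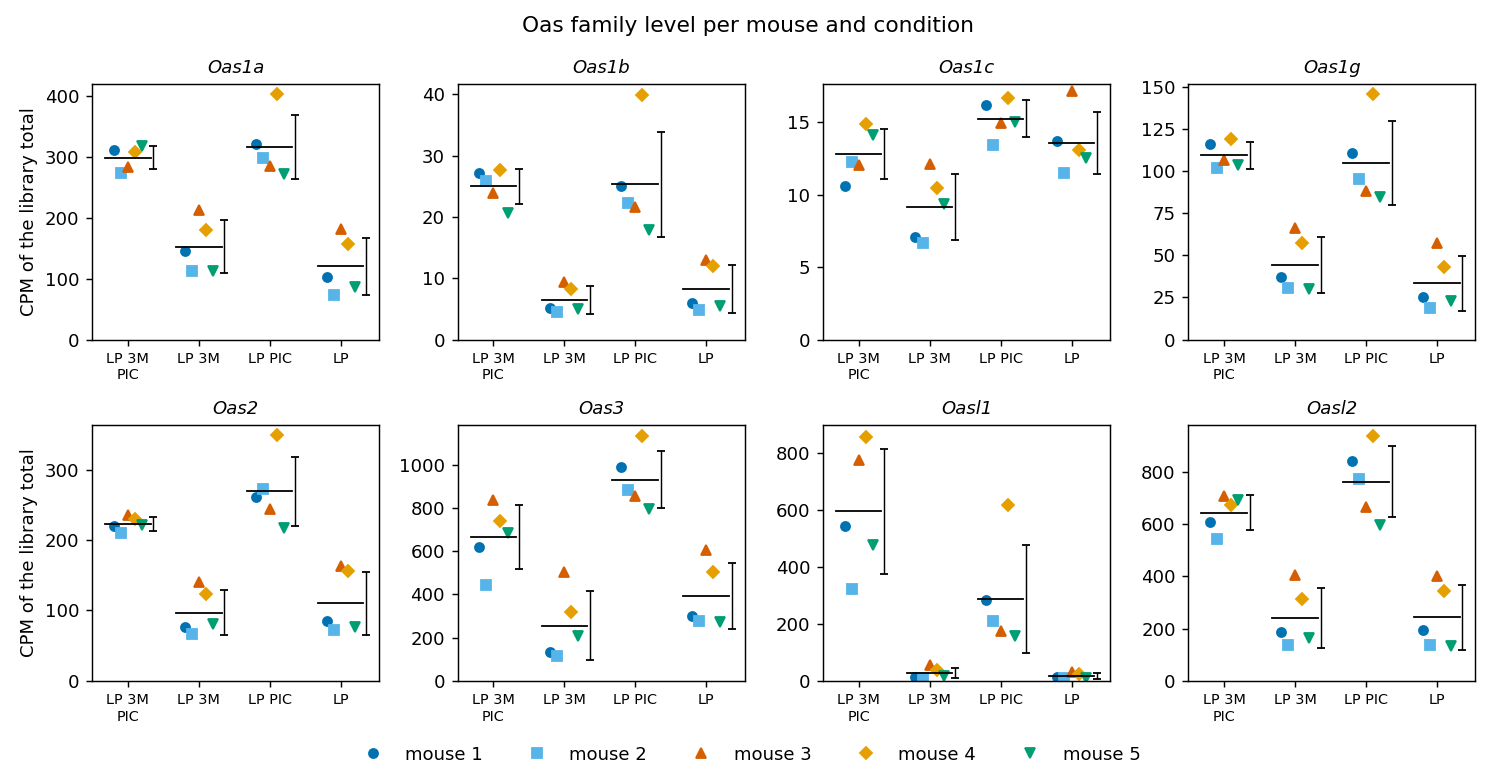
Levels (CPM of the library total, linear axes from 0) of the 8 members in LP 3M PIC, LP 3M, LP PIC and LP; each symbol is 1 of the 5 mice, the line is the mean and the bar is the SD. For 7 members the means of the 2 PIC groups lie above those of the 2 groups without PIC, whereas the Oas1c mean in LP 3M PIC lies below that in LP.

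Oas2 and Oas3 carry synthetase units in tandem. Oas2 averaged 223 ± 9.84 CPM in LP 3M PIC, 97.0 ± 32.5 in LP 3M, 269 ± 49.4 in LP PIC and 110.3 ± 44.9 in LP. It rose in LP 3M PIC by 1.12 ± 0.25, adjusted p = 0.000679, and in LP PIC by 1.32 ± 0.25, adjusted p = 0.00028, on the log2 scale over LP. Between LP 3M and LP it gave -0.09 ± 0.24, adjusted p = 0.799.

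Oas3 stood at 617, 444, 838, 740.4 and 684 CPM in mice 1 to 5 of LP 3M PIC and at 133, 113, 504, 319.8 and 209 CPM in LP 3M. It stood at 988, 885, 857, 1133 and 794 CPM in LP PIC, against 302, 279, 606, 503 and 273 CPM in LP. LP PIC was above LP without overlap, whereas the LP 3M PIC range overlapped both LP and LP 3M, because its mouse 2 lay below LP mice 3 and 4 and LP 3M mouse 3. It rose in LP PIC by 1.28 ± 0.34, adjusted p = 0.00501, and in LP 3M PIC by 0.86 ± 0.34, adjusted p = 0.0346, on the log2 scale over LP. The second call was lost under 12 of 33 alternative settings, with adjusted p between 0.00092 and 0.129 over all of them, although all 5 mice were higher in LP 3M PIC. Those settings were library totals, no filter, mice 3 and 4 alone, leaving out mouse 1, 4 or 5, and leaving out LP mouse 1, 2 or 5 or LP 3M PIC mouse 3, 4 or 5, with log2 values of 0.56 to 0.91. With the mouse as a block, edgeR kept the call in LP 3M PIC against LP, at 0.93 with an adjusted p of 0.00218. Between LP 3M and LP the log2 value was -0.52 ± 0.34, adjusted p = 0.23, with all 5 mice lower in LP 3M; with the mouse as a block it was -0.60 with an adjusted p of 0.0423, and it was called too without LP 3M mouse 3 (-0.93) and in mice 1, 2 and 5 alone (-0.80). Between LP 3M PIC and LP PIC it was -0.42 ± 0.34, adjusted p = 0.323. By CPM of the library total Oas3 was again lower in all 5 mice, but in mouse 3 the log2 ratio was only -0.03. Library totals, in place of the TMM scaling of the fit, shifted the median of all genes by -0.07 in this comparison.

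Oasl1 had the highest fold changes over LP of the 8 members in both PIC groups. In mice 1 to 5 it stood at 544, 322, 777, 857 and 476 CPM in LP 3M PIC and at 13.9, 10.9, 53.8, 37.0 and 17.8 CPM in LP 3M. It stood at 283, 209, 175, 618 and 158 CPM in LP PIC and at 11.9, 9.03, 31.4, 24.9 and 11 CPM in LP. All 10 PIC-treated libraries lay above all 10 others, and the LP 3M and LP ranges overlapped, as did LP 3M PIC and LP PIC. Group means were 595 ± 219.7, 26.7 ± 18.3, 289 ± 190.4 and 17.6 ± 9.89 CPM in LP 3M PIC, LP 3M, LP PIC and LP.

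Its mean was 33.7 times the LP mean in LP 3M PIC and 16.4 times it in LP PIC. The fitted log2 fold changes were 5.16 ± 0.57, adjusted p = 3.44e-07 in LP 3M PIC against LP and 4.06 ± 0.54, adjusted p = 8.27e-06 in LP PIC against LP. Against LP 3M it rose in LP 3M PIC by 4.48 ± 0.55, adjusted p = 8.45e-06. The single 3M formulation gave 0.68 ± 0.49, adjusted p = 0.291 against LP, with all 5 mice higher in LP 3M. LP 3M PIC was above LP PIC in all 5 mice, by 0.47 to 2.15 on the log2 scale, but the test gave 1.10 ± 0.48, adjusted p = 0.0695. With the mouse as a block, that difference was called at a log2 value of 1.12 and an adjusted p of 0.00473. It was also called without mouse 4 (1.43), without LP PIC mouse 4 (1.59) and in mice 1, 2 and 5 alone (1.12). Its interaction value was 0.43 ± 0.68, adjusted p = 0.753.

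Oasl2 averaged 645 ± 68.6 CPM in LP 3M PIC, 242 ± 114 in LP 3M, 764 ± 137 in LP PIC and 243 ± 123 in LP. It rose in LP 3M PIC by 1.50 ± 0.32, adjusted p = 0.000507, and in LP PIC by 1.68 ± 0.32, adjusted p = 0.00035, on the log2 scale over LP. LP 3M and LP gave 0.09 ± 0.32, adjusted p = 0.849, and LP 3M PIC and LP PIC gave -0.18 ± 0.32, adjusted p = 0.672. Unlike Oasl1, its LP 3M PIC level was above LP PIC in 2 of 5 mice only; the difference between the 2 genes was not tested.

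Levels between genes were compared per kilobase of each gene's first listed GENCODE transcript. The 8 members summed to 918 ± 158 CPM per kb in LP 3M PIC, 279.9 ± 119 in LP 3M, 889 ± 215 in LP PIC and 289 ± 124 in LP (SD, n = 5 each). The sums of the 2 PIC groups differed by less than their spread, and so did those of the 2 groups without PIC. Oasl1 took 30.5% of it in LP 3M PIC, 4.49% in LP 3M, 15.3% in LP PIC and 2.88% in LP, as shares of the summed group means. Per library its share was 22.0% to 37.3%, 3.01% to 5.56%, 10.7% to 23.5% and 2.33% to 3.25% in the same order of groups. The LP 3M PIC and LP PIC shares overlapped between mice, but within each of the 5 mice the share was higher in LP 3M PIC. In mice 1 to 5 it was 29.0%, 22.0%, 34.7%, 37.3% and 25.3% in LP 3M PIC. In LP PIC it was 14.4%, 11.9%, 10.9%, 23.5% and 10.7%. The difference in share was not tested. By level per kb Oasl1 ranked first of the 8 in LP 3M PIC, at 280.1, and sixth in LP, at 8.30. Oas3 took 15.3%, 19.4%, 22.2% and 28.8% in that order. With the union of all annotated exons as the length, Oasl1 kept ranks 1 and 6, but the leading gene in LP was Oas1a, whereas per transcript it was Oas3 (83.2 CPM per kb, with Oasl2 at 77.7 and Oas1a at 63.7). The order of those 3 genes depends on the length used.

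**Figure D3:**
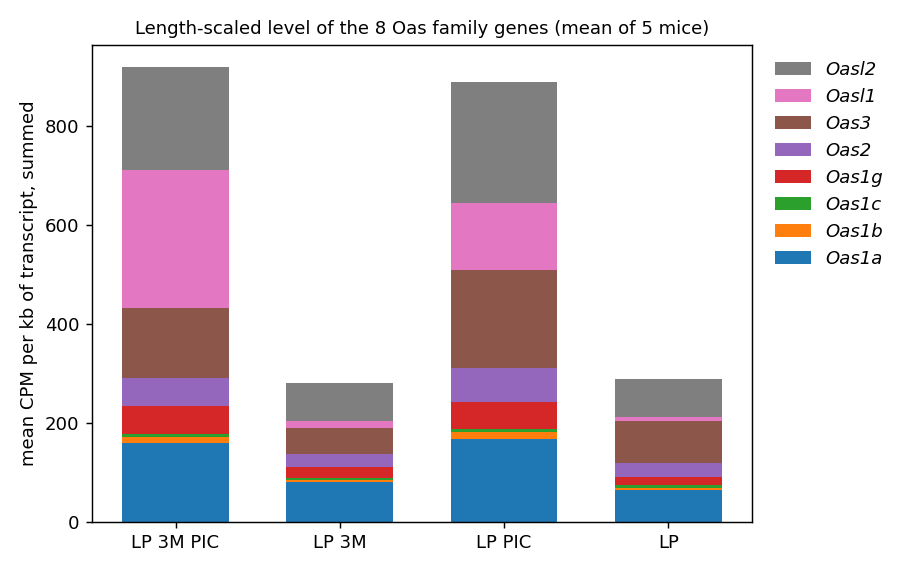
Mean level of each member (CPM per kb of transcript, stacked from 0, y axis) in LP 3M PIC, LP 3M, LP PIC and LP (x axis). The stacks of the 2 PIC groups reach about the same height (918 and 889) and the Oasl1 block is taller in LP 3M PIC than in LP PIC (30.5% and 15.3%).

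Other genes tied to the oligoadenylate system were Abce1, which recycles ribosomes, and Pde12 and Akap7, phosphodiesterases that can break down 2′-5′ oligoadenylates. Of these 3, 1 was higher and 0 lower in LP 3M PIC against LP, and 1 was higher and 0 lower in LP 3M against LP. In LP PIC against LP 0 were called, where edgeR's unadjusted p was under 0.05 for 1 (Akap7) and DESeq2 called 0. Of all tested genes 62.2%, 39.5% and 45.5% were called in these comparisons, in that order, with 31.7%, 20% and 22.7% higher. Abce1 rose by 0.43 (adjusted p = 0.000238) and 0.47 (adjusted p = 0.000271) in the first and second of these by edgeR's test, with means of 112 ± 9.75 CPM in LP 3M PIC, 115 ± 9.20 in LP 3M, 79.6 ± 10.2 in LP PIC and 90.0 ± 8.30 in LP. Akap7 was called only in LP 3M PIC against LP 3M (0.71 ± 0.17, adjusted p = 0.0028) and in LP 3M against LP PIC (-0.72 ± 0.17, adjusted p = 0.00219). Pde12 was called in none of the 6 pairwise comparisons, with means of 19.6 to 22.2 CPM. The median log2 fold change of the 3 was 0.37, 0.08 and -0.13 in LP 3M PIC, LP 3M and LP PIC against LP.

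RNA and DNA sensing genes (11 listed, sensors and adaptors among them) rose in part with the synthetases. Against LP, 8 rose in LP 3M PIC and 1 fell, 2 rose in LP 3M and 0 fell, and 7 rose in LP PIC and 0 fell. The list medians were 0.95, 0.22 and 0.79 on the log2 scale. Of all tested genes 62.2%, 39.5% and 45.5% were called in the same order, with 31.7%, 20% and 22.7% higher. Tlr3, the endosomal receptor for double-stranded RNA, rose in LP 3M PIC (1.02 ± 0.20, adjusted p = 0.000255) and in LP PIC (1.13 ± 0.20, adjusted p = 0.000193). Ifih1 (MDA5), a cytosolic sensor of long double-stranded RNA, rose by 1.96 in LP 3M PIC and 1.54 in LP PIC, with adjusted p of 1.30e-06 and 4.21e-05. Zbp1, a sensor of left-handed nucleic acids, rose in all 3, by 3.43 in LP 3M PIC, 1.36 in LP 3M (adjusted p = 0.0408) and 3.22 in LP PIC. Eif2ak2 (PKR), a kinase switched on by double-stranded RNA, rose in LP 3M PIC (0.66 ± 0.17, adjusted p = 0.00292) and gave 0.42 ± 0.17, adjusted p = 0.0577 in LP PIC. Mavs, the adaptor of the cytosolic RNA sensors, fell in LP 3M PIC by 0.19 ± 0.07, adjusted p = 0.0356. In LP 3M PIC against LP PIC, 1 of the 11 was called, Ticam1 (0.49 ± 0.12, adjusted p = 0.00247), where 44.5% of all tested genes were called.

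Interferon signalling genes (12 listed) had 10 higher in LP 3M PIC, 4 higher in LP 3M and 11 higher in LP PIC, each against LP. In each 0 were lower, and the list medians were 1.11, 0.16 and 1.10. Of all tested genes 62.2%, 39.5% and 45.5% were called in the same order, with 31.7%, 20% and 22.7% higher. Ifnb1, which encodes interferon beta, had 283 reads over the 5 LP 3M PIC libraries, 0 in LP 3M, 125 in LP PIC and 1 in LP. In mice 1 to 5 it stood at 2.69, 6.33, 0.877, 1.31 and 1.75 CPM in LP 3M PIC and at 1.18, 1.64, 0.788, 1.63 and 0.230 CPM in LP PIC. Mouse 2 gave 148 of the 283 LP 3M PIC reads, and without it the LP 3M PIC mean was 1.66 CPM, against 2.59 CPM with it. The ranges of the 2 groups overlapped, and mouse 4 was lower in LP 3M PIC than in LP PIC. Stat2, which helps carry the interferon signal to the nucleus, rose by 1.38 in LP 3M PIC and by 1.57 in LP PIC. Irf7, whose translation Oasl1 is known to hold back, averaged 1085 ± 194 CPM in LP 3M PIC, 268 ± 222 in LP 3M, 1306 ± 354 in LP PIC and 215 ± 186 in LP. Irf7 transcript rose in LP 3M PIC by 2.42 ± 0.56, adjusted p = 0.00106, and in LP PIC by 2.62 ± 0.57, adjusted p = 0.000999. Between LP 3M PIC and LP PIC its log2 value was -0.20 ± 0.54, adjusted p = 0.781. Socs1, a feedback inhibitor of JAK kinases, rose both in LP 3M against LP (3.33 ± 0.53, adjusted p = 8.35e-05) and in LP 3M PIC against LP PIC (2.81 ± 0.48, adjusted p = 0.00014). Both of these lists were drawn up with results of these libraries known.

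The genes with the most similar profiles were ranked by the root mean square difference of centred log2 CPM over the 20 libraries. Nearest outside the family were Ddx58 for Oas1g (0.159), Stat2 for Oasl2 (0.13), Trim34a for Oas2 (0.153), Ifi204 for Oas1b (0.224) and Trim12a for Oas3 (0.287). The next ones, in the same order, were Ifi35, Trex1, Irgm1, Trim12a and Sp110. Oasl1 was nearest to Ccl5 (0.476) and Heatr9 (0.537), and its nearest family member, Oas1b, stood at 1.39. Oas1c was nearest to Usf1 (0.182) and Zfp691 (0.188), and its nearest family member, Oas2, ranked 8046 among all tested genes at 0.57. The 7 other members ranked a family member among their nearest 136 genes. Mean Ccl5 was 5405 CPM in LP 3M PIC, 447 in LP 3M, 4840.1 in LP PIC and 252 in LP.

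By the median over members, the 5 mice differed in their family levels most where PIC was absent. For the median member, the highest mouse was 1.32 times the lowest in LP 3M PIC, 2.18 times in LP 3M, 1.59 times in LP PIC and 2.58 times in LP. Over all genes with a mean of at least 5 CPM the same medians were 1.33, 1.28, 1.30 and 1.26. Not every member followed the family median. For Oasl1 the highest mouse was 3.92 times the lowest in LP PIC, against 3.47 times in LP. For Oas1b it was 2.24 times in LP PIC, against 2.12 times in LP 3M. Mice 3 and 4 were the top pair for 3 of 8 members in LP 3M PIC, 8 in LP 3M, 0 in LP PIC and 7 in LP. In LP PIC mouse 4 alone was highest for all 8. The log2 ratio of CPM in LP PIC over LP was smallest in mouse 3 for each of the 7 members that rose. For Oas1a, for example, it was 0.65 where the other mice had 1.36 to 2.02. Mouse 3 was also highest in LP for all 8 members. Since LP is the denominator of the ratio, a small ratio there is no separate observation.

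**Figure D4:**
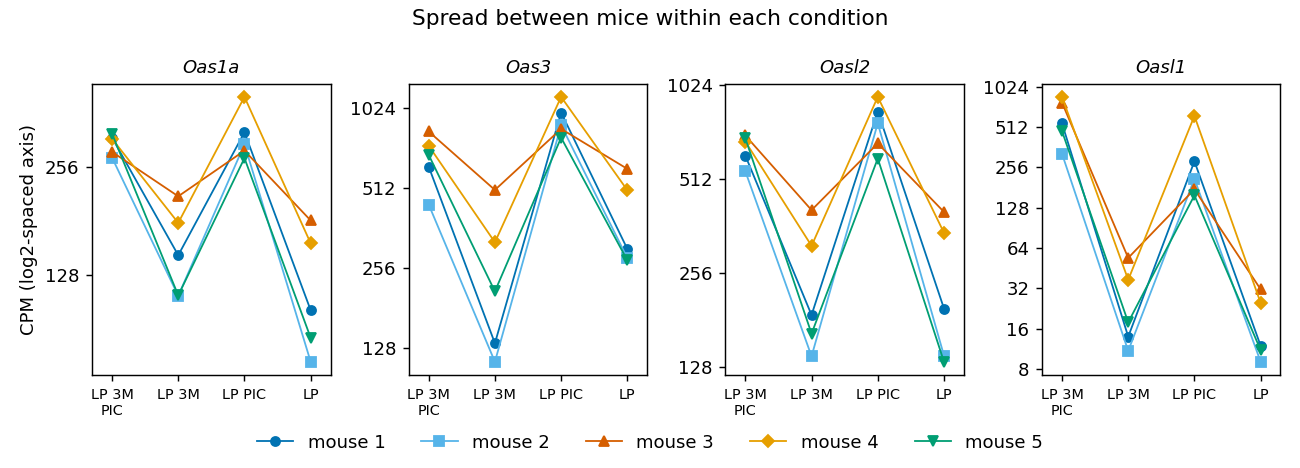
Levels of Oas1a, Oas3, Oasl2 and Oasl1 in each of the 5 mice across LP 3M PIC, LP 3M, LP PIC and LP (log axis, CPM of the library total), with 1 line per mouse. Mice 3 and 4 stand apart at the top in LP 3M and LP, where for example Oas1a reads 213 and 179 CPM in LP 3M and 182 and 157 CPM in LP.

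Mice 3 and 4 also carry IDs written in another form than those of mice 1, 2 and 5, and what that form records is not known from the sources used here. Fits within each set, chosen after the values were seen, called 7 members in LP PIC against LP in both, where 28.9% of all tested genes were called in mice 1, 2 and 5 (14.5% higher and 14.3% lower) and 25% in mice 3 and 4 (12.9% higher and 12.1% lower). In LP 3M PIC they called 7 against LP in mice 1, 2 and 5, where 48.2% of all tested genes were called (24.6% higher and 23.5% lower). In mice 3 and 4 they called 6, where 46.5% were called (23.1% higher and 23.5% lower). For Oas1a the log2 fold change in LP PIC against LP was 1.83 in mice 1, 2 and 5 and 1.05 in mice 3 and 4. For Oasl2 it was 2.30 and 1.14, and for Oasl1 4.39 and 3.85, in the same order. For Oas1a in LP 3M PIC against LP it was 1.92 in mice 1, 2 and 5 and 0.86 in mice 3 and 4. Mean Oas1a in LP was 87.0 CPM in mice 1, 2 and 5 and 170 CPM in mice 3 and 4. It was 297 and 344 CPM in LP PIC, and 300 and 295 CPM in LP 3M PIC, in the same order. Since LP is the denominator of these ratios, a smaller ratio in mice 3 and 4 is no separate observation from their higher LP levels. The difference between the sets was not tested.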

How the data were processed

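Transcripts were measured by poly(A)-enriched RNA-seq in 20 libraries (4 conditions, 5 mice each). The deposited files hold whole-number read counts per gene symbol, without normalization, 1 file per library. Per the submitters' processing notes, the authors used HTSeq (0.13.5), the aligner STAR (2.7.11b), the build GRCm38, FastQC (version 0.11.1) and, downstream, DESeq2 (1.44.0). The annotation, the strand setting and the handling of reads that match several genes were not given in the sources used here. Reads assigned to no feature (5.94 to 8.58% of all reads in a library's table, these rows included) and ambiguous reads (1.14 to 1.90%) name no gene and were left out.

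Groups were taken from the treatment labels. Counts were tested with edgeR 4.0.16 in R 4.3.3 (TMM scaling, filterByExpr at its count minimum of 10 and total minimum of 15, robust quasi-likelihood F-test, two-sided, 1 mean per condition over all 20 libraries, Benjamini-Hochberg adjustment over 12132 genes with a threshold of 0.05, which hold 99.969% of the counts). The SE of a log2 fold change is its size divided by the root of F. Ratios per mouse, and counts of mice higher or lower, use CPM of the library total without TMM scaling. The edgeR fit was tested on simulated counts, for LP PIC against LP and without a mouse effect. Library totals of 9740528 to 23874805 put a floor of 3 counts at 0.126 to 0.308 CPM, which covers counting error only. No pair of libraries agreed within sampling noise (lowest chi-square per degree of freedom 7.46 over 190 pairs).

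The replicate numbers mark the same mouse in all 4 conditions, per the labels' mouse IDs. Deviations from the group means correlated at 0.137 to 0.541 within a mouse (30 pairs) and at -0.404 to 0.375 between mice (120 pairs). The medians were 0.399 and -0.152. The 2 ranges overlap, so the pairing is taken from the labels. The fit with the mouse as a block was an alternative, as were DESeq2 1.42.0, RLE scaling, library totals, no filter, only the groups compared and leaving out each mouse. Leaving out each library, the 2 sets of mouse IDs and TMM-scaled CPM were added after seeing the data. The members, the lists and the rule for named genes (all members, all genes of the lists and the 2 genes with the nearest profile to each member) were chosen with earlier results of these data known. Some genes under that rule are not reported here. Levels per kb were first computed over the union of exons (GENCODE M21); the first listed transcript (number 201) was put in its place after those values were seen, since exon unions of Oas3 and Oasl2 run to 7069 and 6374 bases, against transcripts of 4720 and 3123. Promoters are from RefSeq.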

Additional observations from a re-analysis of the deposited data

Results flagged for a closer look

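Oasl1 in LP PIC stood at 618 CPM in mouse 4, above the next highest mouse at 283 CPM. Its gap to that mouse was 0.727 of the group's range, above Dixon's 95% critical value for 5 samples. It was the only such value among 32 groups of 5 (the 8 members in 4 conditions), and chance gives about 1 in 20 groups. Mouse 4 was also highest for the other 7 members in LP PIC. Without this library, the log2 fold change of Oasl1 in LP 3M PIC against LP PIC was 1.59, against 1.10 with it.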

How the results depend on the processing

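Among the results listed here, each count was recomputed under up to 33 alternatives. The members called stayed at 7 in LP PIC against LP under all of them. With the mouse as a replicate block, the members called were 3 in LP 3M against LP and 1 in LP 3M PIC against LP PIC, and all genes called for the interaction were 1656, against 1023 without the block; other counts of members did not change. Leaving out mice or libraries gave 6 to 7 members called in LP 3M PIC against LP, 7 to 8 in LP 3M PIC against LP 3M, 0 to 1 in LP 3M PIC against LP PIC and 0 to 2 in LP 3M against LP, and 180 to 1807 genes for the interaction (180 without mouse 1, 244 without mouse 4, 291 without mouse 2, 657 and 659 without LP 3M PIC mouse 1 or 4, 1807 without LP 3M PIC mouse 5). The values in LP 3M against LP were 0 without mouse 1, 2 (both lower) without LP 3M mouse 3 and 2 (both higher) without LP mouse 3. In mice 1, 2 and 5 alone, members called were 4 in LP 3M against LP and 1 in LP 3M PIC against LP PIC, and in mice 3 and 4 alone 0 in LP 3M against LP and 5 in LP 3M PIC against LP 3M. Mice 3 and 4 alone also gave 7 in LP 3M against LP PIC and 6 in LP 3M PIC against LP. The counts over all genes in these 2 sets, which hold fewer samples, were 5847 and 5647 in LP 3M PIC against LP, 2928 and 3216 in LP 3M PIC against LP PIC, 2799 and 2517 in LP 3M PIC against LP 3M, 2338 and 2784 in LP 3M against LP, 3127 and 3744 in LP 3M against LP PIC, 3503 and 3029 in LP PIC against LP, and 87 and 89 for the interaction, against 7551, 5397, 5032, 4790, 5712, 5515 and 1023.

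Log2 fold changes changed sign in 40 cases, all of them of values that had not been called. In LP 3M PIC against LP, Oas1c gave -0.092 with library totals, -0.00016 without the filter, -0.11 in mice 3 and 4, and -0.065 to 0.15 over the leave-outs. In LP 3M PIC against LP PIC, Oas1a gave 0.0079 with the block, 0.091 in mice 1, 2 and 5 and -0.075 to 0.086 over the leave-outs; Oas1b gave -0.021 with library totals, -0.23 in mice 3 and 4 and -0.058 to 0.27; Oas1g gave -0.027 in mice 3 and 4. In LP 3M against LP, Oas2 gave 0.044 in mice 1, 2 and 5 and -0.26 to 0.11, and Oasl2 -0.0075 with library totals and -0.19 to 0.36. For the interaction, over the leave-outs, Oas2 gave -0.32 to 0.059, Oas3 -0.13 to 0.51 and Oasl2 -0.55 to 0.0081. Library totals shifted the median of all genes by -0.11 in both 3M groups against LP. The cause of these changes was not tested. The interaction was not fitted on only the groups compared, since it needs all 4. LP mouse 2, at 9740528 reads, is the shallowest library.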
